A study of Caenorhabditis elegans with 9 samples.

Results

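The products of 9 nuclear genes serve protein import into mitochondria, mitochondrial shape and the order of the inner membrane, and their RNA was followed in the germ line of Caenorhabditis elegans. They are the import genes tomm-20, tomm-22 and timm-23, the fusion genes fzo-1 and eat-3, the fission gene drp-1, the prohibitin genes phb-1 and phb-2, and the inner membrane ATPase gene atad-3. They were picked by symbol, through the WormBase gene ID of each row, and make up 9 of the 46245 genes in the deposited table. All 9 had a single row, and all 9 passed the filter on low values.

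Germ lines were extruded by cutting off the heads of worms at day 6 of adulthood. The worms had grown on OP50 bacteria and were moved at adulthood to RNAi bacteria and to the test temperature. The 9 libraries form 3 groups of 3. EV 15C and EV 20C are control worms fed the empty vector (EV) at 15°C or 20°C, and iff-1 RNAi 15C worms were fed RNAi against iff-1 at 15°C. The series title calls all worms wild type, and RNAi was given to whole worms by feeding. The gene iff-1 encodes an eIF5A homologue, a translation factor. Whether the libraries of a group were grown apart is not in the labels, and p-values therefore speak only of the spread between these libraries, which may be technical.

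Nearly all mitochondrial proteins are made in the cytosol. Receptors of the outer membrane, among them the products of tomm-20 and tomm-22, bind their targeting signals, and the channel formed by the timm-23 product carries them across the inner membrane. Mitochondria fuse through mitofusin (FZO-1) on the outer membrane and the OPA1-like GTPase EAT-3 on the inner membrane, and divide through the dynamin-related GTPase DRP-1. Prohibitins PHB-1 and PHB-2 assemble together into large ring-like complexes of the inner membrane, and ATAD-3 is an AAA ATPase of the inner membrane needed for mitochondrial upkeep. Germ cells and oocytes hold many mitochondria and pass them to the embryo. Only RNA was measured here, and no statement below is about protein.

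Loss of the RNAi target was checked. RNA of iff-1 stood at 2677, 2653 and 2510 FPKM (sequenced fragments scaled to transcript length and to library size, the unit of the deposited values) in EV 15C and 103.9, 58.0 and 37.4 FPKM in iff-1 RNAi 15C. Germ line markers (10 of 10 detected, among them glh-1, pgl-1 and rme-2) summed to 4730 to 4802 FPKM in EV 15C, 4520 to 4591 FPKM in EV 20C and 4487 to 4714 FPKM in iff-1 RNAi 15C. Both latter groups lay below EV 15C in every library. The estimated depth was 36.3 to 42.3 in units of 1e6 fragments per library. With the full annotated exon length, this puts about 2663 to 16622 fragments behind each value of a member. The counting error estimated from these is at most 1.94%, the value for tomm-22. How the fragment length was allowed for is not given, so for short transcripts the true error may be larger. Marker genes of other cells were present too. The 13 intestine markers found summed, sorted by level, to 81.1, 87.9 and 266 FPKM in EV 15C, 58.0, 68.4 and 137 FPKM in EV 20C and 104.7, 124.5 and 283 FPKM in iff-1 RNAi 15C. Within each group 1 library stood above the others, namely EV 15C replicate 3, EV 20C replicate 2 and iff-1 RNAi 15C replicate 1.

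**Figure D1:**
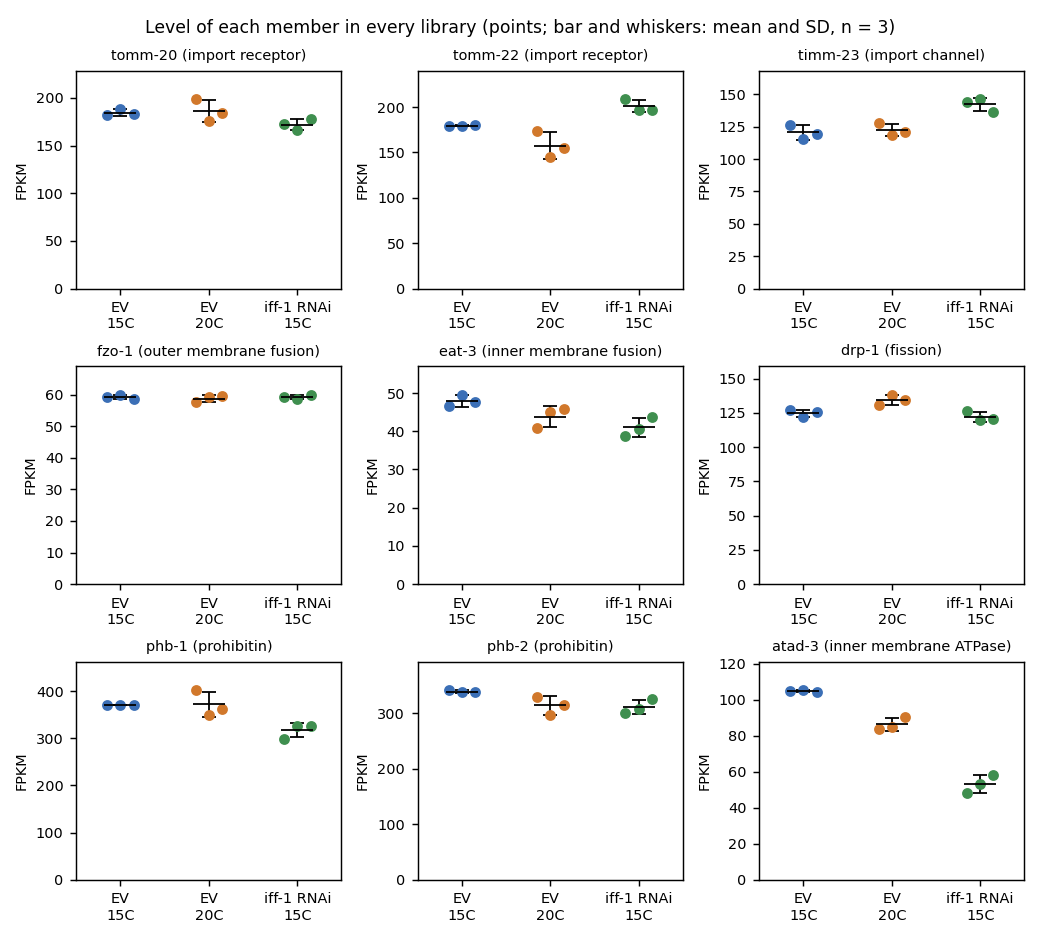
FPKM of each of the 9 genes in every library, by group, with the mean and SD of 3 libraries; each vertical axis starts at 0. The atad-3 points step down from about 105 FPKM in EV 15C to 48.0 to 58.2 FPKM in iff-1 RNAi 15C, while the fzo-1 points stay between 57.5 and 59.98 FPKM in all groups.

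The levels of the 9 genes spread over an order from the prohibitins down to the fusion genes. FPKM is per length, so levels can be set roughly side by side between genes. The annotated exons cover from 471 nt (tomm-22) to 3288 nt (eat-3), and the values of short transcripts depend more on how the fragment length was allowed for. In EV 15C, phb-1 stood highest with 371 ± 0.739 FPKM (SD, n = 3), followed by phb-2 with 339 ± 2.20 FPKM. The import receptor genes came next, tomm-20 with 185 ± 3.52 and tomm-22 with 179 ± 0.473 FPKM. The fission gene drp-1 had 125 ± 2.53 FPKM, timm-23 had 121 ± 5.62 and atad-3 had 105 ± 0.668. The fusion genes were lowest, with 59.3 ± 0.715 FPKM for fzo-1 and 48.0 ± 1.54 for eat-3. In EV 15C the ranges of drp-1 and timm-23 overlapped, and no other neighbours in the order did.

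The same order held in EV 20C. In iff-1 RNAi 15C, tomm-22 stood above tomm-20, timm-23 above drp-1, and fzo-1 above atad-3, each in 3 of 3 libraries. Under iff-1 RNAi the ranges of phb-1 and phb-2 overlapped. Over all 9 libraries, the mean of phb-1 was higher than that of 95.8% of the 8572 tested genes and that of eat-3 higher than 53.2%. In EV 15C the coefficient of variation of the 9 genes ran from 0.199% for phb-1 to 4.66% for timm-23, beside a median of 4.49% over all tested genes. For phb-1, phb-2, tomm-22, fzo-1 and atad-3 that spread was below the lowest counting error estimated for them in any library, 0.776% for phb-1.

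The comparison of iff-1 RNAi 15C with EV 15C addresses what loss of iff-1 RNA does to the germ line at 15°C, where the series title speaks of inhibited germ stem cell proliferation. Among the 9 genes, atad-3 fell by 49.2%, phb-1 fell by 14.4%, eat-3 fell by 14.5%, and timm-23 rose by 18.04%. A gene was called when limma's two-sided test on log2(FPKM + 1) gave a Benjamini-Hochberg adjusted p under 0.05 over all 8572 tested genes. By this rule 3 of 9 members fell and 1 rose, while 15% of all tested genes fell and 16% rose. Ranges of the groups did not overlap for 7 of 9 members, against 49.7% of all tested genes. The median log2 fold change of the 9 was -0.10, beside 0.01 over all tested genes. Over all tested genes there were 1370 rises and 1289 falls, which became 838 rises and 1730 falls with libraries scaled by median ratios. In extruded tissue, fewer cells of a type and less RNA per cell cannot be told apart.

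The inner membrane ATPase gene atad-3 (WBGene00010015, chromosome II, 10248991 to 10251165, plus strand in WBcel235) had 105.04, 105.3 and 104.015 FPKM in EV 15C. In iff-1 RNAi 15C it had 48.0, 53.4 and 58.2 FPKM. All 3 iff-1 RNAi libraries lay far below all EV 15C libraries, and the gap was several times the spread within either group. The log2 fold change was -0.97 (SE 0.06, 95% interval -1.11 to -0.83, limma adjusted p = 8.78e-05). Of the 8572 tested genes, 50 had a lower log2 fold change. The call held in all 20 alternative settings, with values from -1.03 to -0.90 and adjusted p from 5.03e-05 to 0.00635. No other annotated gene overlaps atad-3.

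The prohibitin gene phb-1 (WBGene00004014, chromosome I, 2071352 to 2072547, plus strand), which encodes a subunit of the ring complex, had 371.8, 370.7 and 370.4 FPKM in EV 15C and 299.5, 326.7 and 326.1 FPKM in iff-1 RNAi 15C. The groups did not overlap, and iff-1 RNAi replicate 1 was lowest. It fell by 0.23 on the log2 scale (SE 0.05, adjusted p = 0.0137). Its partner phb-2 (WBGene00004015, chromosome II, 6251411 to 6252780, plus strand) had 341.5, 338.0 and 337.5 FPKM in EV 15C and 299.5, 308.1 and 325.1 FPKM in iff-1 RNAi 15C. The groups did not overlap here either, but the log2 fold change of -0.13 (SE 0.04, 95% interval -0.22 to -0.03) missed the threshold (adjusted p = 0.0539). It passed without EV 20C replicate 1 (adjusted p = 0.0292), EV 20C replicate 2 (0.0307) or iff-1 RNAi 15C replicate 3 (0.0285), and in 7 of 20 alternatives in all. Exons of phb-2 share 62 nt with exons of F13H8.5, which runs the opposite way, and whether counting used strand is not given in the sources at hand.

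The inner membrane fusion gene eat-3 (WBGene00001134, chromosome II, 9324874 to 9329665, plus strand) had 46.5, 49.6 and 47.8 FPKM in EV 15C and 38.8, 40.5 and 43.7 FPKM in iff-1 RNAi 15C. Every iff-1 RNAi library lay below every EV 15C library. The gene fell by 0.22 on the log2 scale (SE 0.06, adjusted p = 0.0203). Its call was lost without EV 15C replicate 2 (adjusted p = 0.0732), EV 15C replicate 3 (0.0533), iff-1 RNAi 15C replicate 1 (0.0720) or iff-1 RNAi 15C replicate 2 (0.0618).

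The outer membrane fusion gene and the fission gene did not pass the test under iff-1 RNAi. The mitofusin gene fzo-1 (WBGene00001509, chromosome II, 5833328 to 5836203, minus strand) had 59.3, 59.98 and 58.5 FPKM in EV 15C and 59.3, 58.6 and 59.7 FPKM in iff-1 RNAi 15C. The groups overlapped fully, and the 95% interval of its log2 fold change ran from -0.07 to 0.06. The dynamin-related gene drp-1 (WBGene00001093, chromosome IV, 5538488 to 5541365, plus strand) had 127.0, 122.1 and 125.4 FPKM in EV 15C and 126.3, 120.0 and 120.3 FPKM in iff-1 RNAi 15C. These ranges overlapped as well, with an interval of -0.10 to 0.04 (adjusted p = 0.507).

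Of the import members, timm-23 alone passed the test. The channel gene timm-23 (WBGene00008857, chromosome I, 11578641 to 11579612, plus strand) had 126.6, 115.6 and 119.4 FPKM in EV 15C and 144.0, 146.3 and 136.6 FPKM in iff-1 RNAi 15C. The groups did not overlap, and it rose by 0.24 on the log2 scale (SE 0.04, adjusted p = 0.00518). The receptor gene tomm-22 (WBGene00021133, chromosome II, 468374 to 470475, minus strand) had 179.1, 179.3 and 180.0 FPKM in EV 15C and 208.8, 197.3 and 196.8 FPKM in iff-1 RNAi 15C. It was higher in 3 of 3 libraries, but the log2 fold change of 0.16 (SE 0.06) missed the threshold (adjusted p = 0.0683). It passed without EV 20C replicate 1 (adjusted p = 0.00951) or EV 20C replicate 2 (0.0299), which enter only the shared estimate of the spread. The annotated exons of tomm-22 cover 471 nt, the shortest of the 9, and FPKM of short transcripts depends more on how the fragment length was allowed for.

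The other receptor gene, tomm-20 (WBGene00009092, chromosome V, 12342314 to 12343469, minus strand), had 181.9, 188.5 and 183.3 FPKM in EV 15C and 172.3, 166.3 and 177.4 FPKM in iff-1 RNAi 15C. It was lower in 3 of 3 libraries, with a log2 fold change of -0.10 (SE 0.05, adjusted p = 0.126). Without EV 20C replicate 1 its adjusted p was 0.0447.

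**Figure D2:**
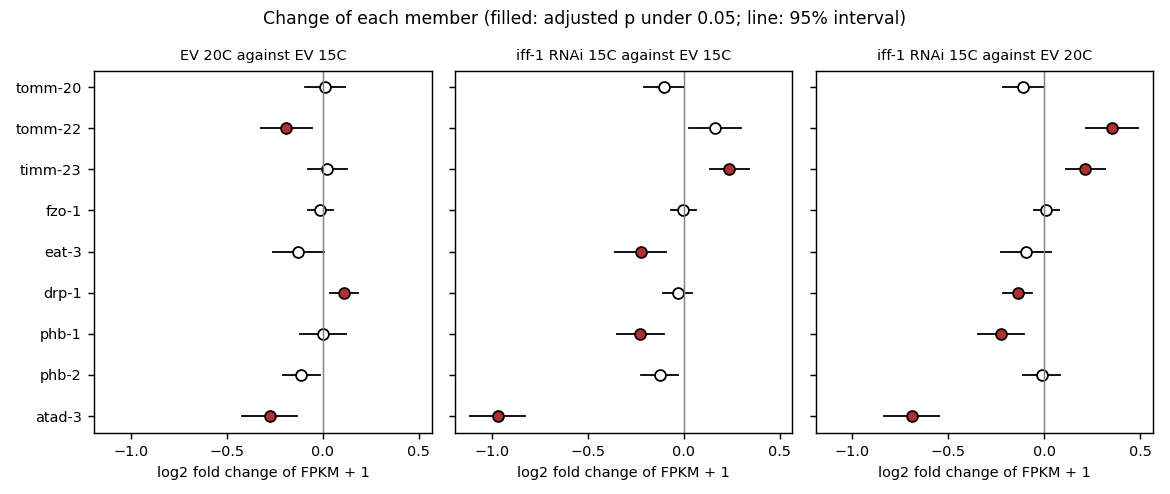
Log2 fold change of FPKM + 1 (horizontal axis) of each of the 9 genes in the 3 comparisons, with limma's 95% interval; filled points passed an adjusted p of 0.05. The atad-3 interval in iff-1 RNAi 15C against EV 15C, -1.11 to -0.83, lies apart from those of the other members.

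Marker sums differed between iff-1 RNAi 15C and EV 15C for some cell types and overlapped for others. The germ line sum was lower under iff-1 RNAi without overlap, as given above, but narrowly. The highest iff-1 RNAi library had 4714 FPKM and the lowest EV 15C library 4730 FPKM. The marker glh-2 alone fell by more than this gap (log2 -0.82). The sums therefore do not show that the other germ line markers separate the groups. Sperm markers (12 of 12 in the table) summed to 5.78 to 8.09 FPKM in EV 15C and 15.99 to 25.3 FPKM in iff-1 RNAi 15C. In each of these libraries 6 to 8 of the 12 were listed at 0, with msp-3, msp-19 and spe-11 at 0 in all. Under iff-1 RNAi, msp-31, msp-76 and ssp-16 were at 0 in every library too, so the sums rest on few genes. Neuron markers (11 of 11) summed to at most 24.6 FPKM in EV 15C and to 28.6 to 32.2 under iff-1 RNAi, and muscle markers (14 of 14) to 157 to 189 and 110 to 141 FPKM, with myo-2 listed at 0 in 5 of these 6 libraries. Somatic gonad markers (8 of 8, ehn-3 listed at 0) summed to 95.3 to 122 and 91.0 to 107 FPKM, and cuticle and hypodermis markers (10 of 10) to 10.1 to 19.1 and 10.02 to 19.7 FPKM, with dpy-7, rol-6, dpy-13, dpy-5 and bli-1 each listed at 0 in some libraries. The part of these marker differences in the members' values was not tested. With the most intestine-rich library of each group left out, a setting added after the data were seen, atad-3 kept its call (log2 -0.90, adjusted p = 0.00635). In that setting, with 2 libraries per group, the calls of phb-1 (adjusted p = 0.0728), eat-3 (0.154) and timm-23 (0.0705) were lost at log2 values of -0.18, -0.19 and 0.22.

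The comparison of EV 20C with EV 15C addresses the effect of the warmer temperature on the adult germ line. At 20°C, atad-3 fell by 17.6%, tomm-22 fell by 12.2% and drp-1 rose by 7.87%. In all, 2 of 9 members fell and 1 rose, while 8.69% of tested genes fell and 19.3% rose. Ranges did not overlap for 5 of 9 members, against 45.4% of tested genes. The median log2 fold change was -0.01, beside 0.03 over all tested genes. Over all tested genes 1656 rose and 745 fell, and 1261 rose and 1021 fell under quantile normalization.

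The largest change among the 9 was again that of atad-3. It had 83.8, 84.8 and 90.4 FPKM at 20°C, all below the 104.015 to 105.3 FPKM of the 15°C controls. Its change was -0.28 on the log2 scale (SE 0.06, adjusted p = 0.0130), and 11.8% of tested genes had a lower one. The call held in all 20 alternatives (adjusted p from 0.00427 to 0.0441).

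The receptor gene tomm-22 had 173.6, 144.5 and 154.5 FPKM at 20°C, below all EV 15C libraries but widely spread. It fell by 0.19 on the log2 scale (SE 0.06, adjusted p = 0.0424). The fission gene drp-1 had 130.9, 138.3 and 134.7 FPKM at 20°C, above all EV 15C libraries, and rose by 0.11 (SE 0.03, adjusted p = 0.0380). Neither call was firm. Leaving out any 1 of the EV 15C libraries, EV 20C replicate 2 or 3, or replicate 2 of iff-1 RNAi 15C ended both calls, and leaving out replicate 3 of iff-1 RNAi 15C ended that of tomm-22. Their adjusted p then reached at most 0.119 for tomm-22 and 0.123 for drp-1, and with the replicate number as a block drp-1 had adjusted p = 0.0708.

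The prohibitin gene phb-2 had 329.8, 297.2 and 314.7 FPKM at 20°C, and eat-3 had 40.8, 44.9 and 45.8 FPKM. Each lay below its EV 15C libraries without overlap. Their log2 fold changes of -0.11 (adjusted p = 0.0818) and -0.13 (adjusted p = 0.132) missed the threshold. Without EV 20C replicate 1, phb-2 passed it (log2 -0.15, adjusted p = 0.0290) while eat-3 moved to -0.08 (adjusted p = 0.319). Without EV 20C replicate 2, phb-2 moved to -0.07 (adjusted p = 0.210). The remaining members overlapped between temperatures. For phb-1 the EV 20C libraries had 402.3, 349.9 and 363.3 FPKM, on either side of EV 15C. The 95% intervals of the log2 fold change were -0.12 to 0.12 for phb-1, -0.08 to 0.05 for fzo-1, -0.09 to 0.11 for tomm-20 and -0.08 to 0.13 for timm-23.

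At 20°C the marker sums were lower for the germ line (4520 to 4591 FPKM), sperm (2.90 to 3.75 FPKM), muscle (96.9 to 155.5 FPKM) and cuticle and hypodermis (3.86 to 9.62 FPKM) than in EV 15C, without overlap between the groups. For muscle and for cuticle and hypodermis the gap was narrow, as the lowest EV 15C sums were 156.8 and 10.1 FPKM. Of the 12 sperm markers, 6 to 9 were listed at 0 in each EV 20C library, as were 1 to 5 of the 10 cuticle and hypodermis markers. Neurons (22.8 to 26.1 FPKM) and somatic gonad (76.7 to 127 FPKM) overlapped with EV 15C. The part of these marker differences in the members' values was not tested. With the most intestine-rich libraries left out, atad-3 remained called (log2 -0.27, adjusted p = 0.0385). With 2 libraries per group, drp-1 (log2 0.09, adjusted p = 0.146) and tomm-22 (log2 -0.13, adjusted p = 0.169) kept their directions and did not pass.

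**Figure D3:**
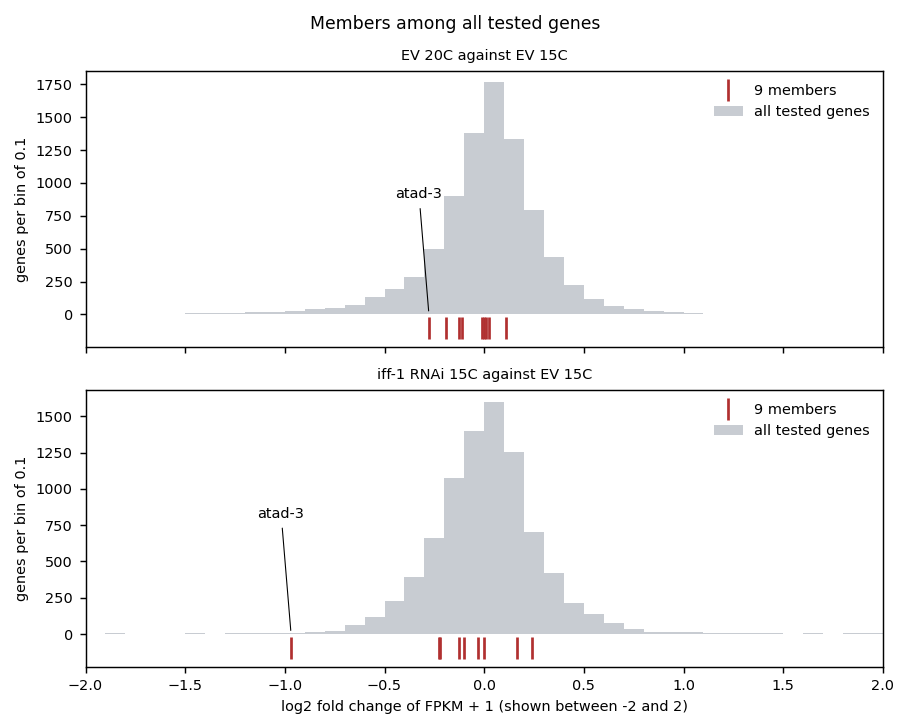
Number of tested genes per bin of 0.1 in log2 fold change (grey bars) in EV 20C (top) and in iff-1 RNAi 15C (bottom), each against EV 15C, with the 9 members as red ticks; the horizontal axis is shown between -2 and 2. At 20°C the ticks run from -0.28 (atad-3) to 0.11 (drp-1), and under iff-1 RNAi the atad-3 tick at -0.97 lies in the lower tail.

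Set directly against EV 20C, iff-1 RNAi 15C differed in temperature and in RNAi target at once, and these cannot be told apart in this comparison. It shares its libraries with the other comparisons. Here 3 of 9 members fell (atad-3, phb-1 and drp-1) and 2 rose (tomm-22 and timm-23), while 28.4% of tested genes fell and 20.5% rose. Ranges did not overlap for 5 of 9 members, against 56.5% of tested genes. The log2 fold changes were -0.69 for atad-3 (SE 0.06, adjusted p = 0.000106), 0.35 for tomm-22 (SE 0.06, adjusted p = 0.00155), -0.23 for phb-1 (adjusted p = 0.00798), 0.21 for timm-23 (adjusted p = 0.00449) and -0.14 for drp-1 (adjusted p = 0.00758). The difference in atad-3 between the warm and the RNAi libraries thus passed the test itself. The calls of atad-3, tomm-22, phb-1 and drp-1 held in all 20 alternatives.

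For tomm-20 the log2 fold change against EV 20C was -0.11 (adjusted p = 0.0719), and without EV 20C replicate 2 it passed the threshold (log2 -0.15, adjusted p = 0.0218). Without EV 20C replicate 1 it was -0.06 (adjusted p = 0.186). The remaining members had 95% intervals of -0.23 to 0.04 (eat-3), -0.11 to 0.08 (phb-2) and -0.05 to 0.08 (fzo-1). With 2 libraries per group, without the most intestine-rich ones, timm-23 had a log2 fold change of 0.18 and did not pass (adjusted p = 0.0669).

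Ratios between members within a library do not depend on how that library was scaled. The receptor ratio of tomm-20 over tomm-22 was 1.02, 1.05 and 1.02 in EV 15C, 1.15, 1.21 and 1.19 in EV 20C and 0.825, 0.842 and 0.902 in iff-1 RNAi 15C. It was above EV 15C in every EV 20C library and below it in every iff-1 RNAi library. The prohibitin ratio of phb-1 over phb-2 was 1.09, 1.10 and 1.10 in EV 15C, 1.22, 1.18 and 1.15 in EV 20C and 1.00, 1.06 and 1.00 in iff-1 RNAi 15C, again with no overlap between any of the groups. An exact two-sided permutation test of 3 against 3 libraries gave p = 0.1 for each of these differences, the smallest that this test can give with 3 against 3, so the permutation test cannot reach 0.05 here.

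The fission to fusion ratio of drp-1 over fzo-1 was 2.11 ± 0.0619 (SD, n = 3) in EV 15C, 2.29 ± 0.0420 in EV 20C and 2.06 ± 0.0590 in iff-1 RNAi 15C. All EV 20C libraries lay above the others (exact permutation p = 0.1), and iff-1 RNAi 15C overlapped with EV 15C (exact permutation p = 0.4). Inner over outer membrane fusion, eat-3 over fzo-1, was 0.809 ± 0.0217 in EV 15C, 0.747 ± 0.0321 in EV 20C and 0.693 ± 0.0387 in iff-1 RNAi 15C, with both latter groups below EV 15C without overlap (exact permutation p = 0.1 each). The channel to receptor ratio of timm-23 over tomm-20 was 0.654 ± 0.0417 in EV 15C, 0.659 ± 0.0166 in EV 20C and 0.828 ± 0.0553 in iff-1 RNAi 15C. It lay above the EV 15C range in every iff-1 RNAi library (exact permutation p = 0.1) and overlapped with it at 20°C (exact permutation p = 0.9). In all, 15 such differences were computed, and the smallest Benjamini-Hochberg adjusted permutation p over them was 0.125.

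**Figure D4:**
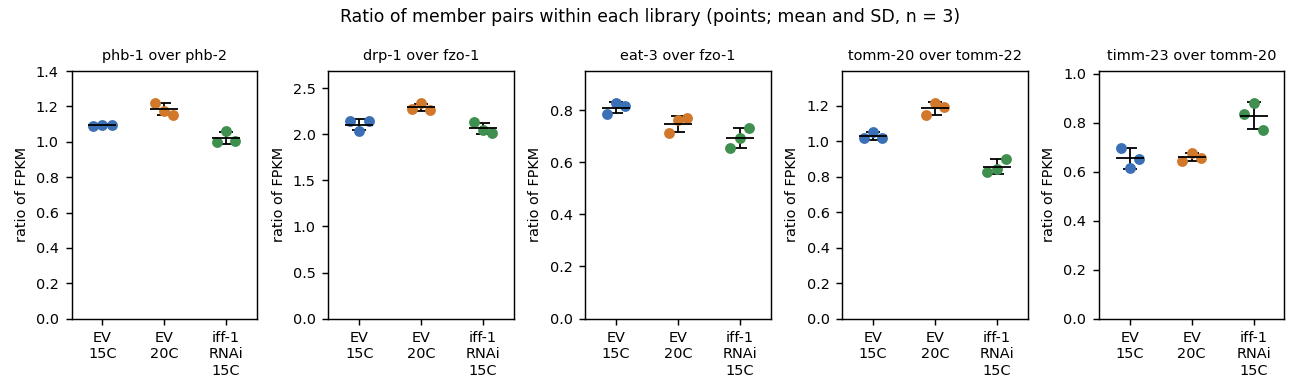
Ratio of FPKM of 5 pairs of members within each library (points), by group, with mean and SD of 3 libraries; vertical axes start at 0. The tomm-20 over tomm-22 ratio lies at 1.02 to 1.05 in EV 15C, 1.15 to 1.21 in EV 20C and 0.825 to 0.902 in iff-1 RNAi 15C.

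Other genes of the same machinery were read from lists chosen by function. Of 20 further import genes, all 20 were tested. Under iff-1 RNAi 9 fell and 0 rose against EV 15C, with a median log2 fold change of -0.09, beside 0.01 over all tested genes, of which 15% fell and 16% rose. At 20°C 1 fell and 0 rose, beside 8.69% and 19.3% of all tested genes. The inner membrane peptidase gene immp-2 fell from 43.6 ± 2.87 to 25.8 ± 1.47 FPKM (log2 -0.73, adjusted p = 0.000592). The processing peptidase genes mppb-1, from 57.9 ± 3.43 to 39.9 ± 3.77 FPKM, and mppa-1, from 32.1 ± 1.43 to 21.9 ± 1.78 FPKM, fell by 0.53 each on the log2 scale. The outer membrane pore gene tomm-40 fell from 196 ± 3.74 to 173 ± 1.99 FPKM (log2 -0.18, adjusted p = 0.00290).

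Falls numbered 5 without the most intestine-rich library of each group, and 1 gene rose without EV 20C replicate 1. At 20°C the gene that fell was tin-10, a small chaperone of the space between the membranes (from 207 ± 7.46 to 179 ± 12.6 FPKM, log2 -0.21, adjusted p = 0.0226). Falls numbered 3 without EV 20C replicate 1, 5 under quantile normalization and 0 without EV 15C replicate 1 or 2. The other 3 genes with the smallest adjusted p at 20°C did not pass: tomm-70 (log2 -0.12), mtx-1 (0.09) and gop-3 (-0.10). Against EV 20C, 9 of the 20 fell and 3 rose in iff-1 RNAi 15C, beside 28.4% and 20.5% of all tested genes. The smallest adjusted p were those of immp-2 (log2 fold change -0.75), mppa-1 (log2 -0.58), tin-9.1 (log2 -0.32) and tin-44 (log2 -0.40). Rises in that comparison numbered 1 without EV 20C replicate 3 or iff-1 RNAi 15C replicate 2.

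Of 20 further genes for shape, inner membrane folds and inner membrane transport, 19 were found by symbol and 18 were tested. Under iff-1 RNAi 6 fell and 2 rose against EV 15C, with a median of -0.06, beside 15% and 16% of all tested genes. The mitochondrial AAA protease gene spg-7 fell from 83.8 ± 1.96 to 56.6 ± 3.34 FPKM (log2 -0.56, adjusted p = 0.000235). The ion carrier gene letm-1 fell from 80.8 ± 1.26 to 66.4 ± 3.60 FPKM (log2 -0.28), and miro-1, whose product ties mitochondria to their transport, from 51.2 ± 0.828 to 44.7 ± 0.302 FPKM (log2 -0.19). The cardiolipin synthase gene crls-1 rose from 137 ± 1.32 to 174 ± 9.76 FPKM (log2 0.34, adjusted p = 0.00218). The other gene that rose, the calcium uniporter gene mcu-1 (0.11, adjusted p = 0.0459, named after its values were seen), passed narrowly. There was 1 rise in 12 of 20 alternatives. Among these were leaving out EV 15C replicate 2 or 3, EV 20C replicate 3, iff-1 RNAi 15C replicate 1 or 2 or the most intestine-rich libraries.

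At 20°C 1 of the 18 rose and 3 fell, with a median of 0.03, beside 19.3% and 8.69% of all tested genes. The fission adaptor gene fis-2 rose from 48.9 ± 2.25 to 60.1 ± 3.46 FPKM (log2 0.29, adjusted p = 0.00510). The genes spg-7 (-0.25), mff-2 (-0.17) and mcu-1 (-0.11) fell, but falls numbered 1 without EV 15C replicate 1 or 3, without EV 20C replicate 3 and without the most intestine-rich libraries, and rises 2 without EV 15C replicate 1. Against EV 20C, 7 fell and 3 rose in iff-1 RNAi 15C, beside 28.4% and 20.5% of all tested genes. The smallest adjusted p were those of miro-1 (log2 fold change -0.26), the inner membrane fold gene immt-1 (log2 -0.62), spg-7 (log2 -0.30) and mcu-1 (log2 0.22).

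**Figure D5:**
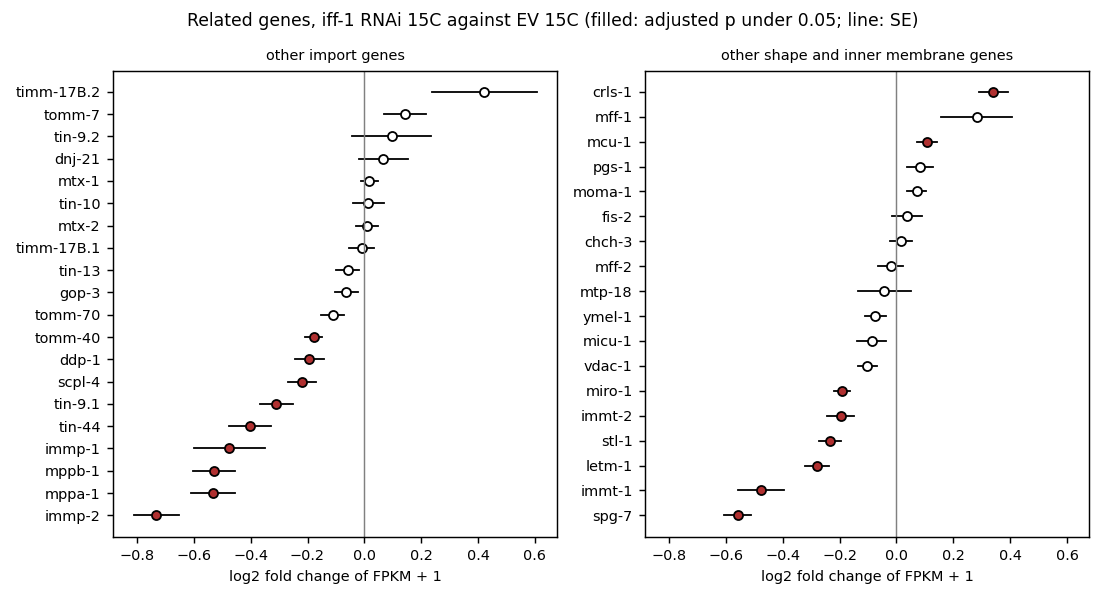
Log2 fold change of FPKM + 1 in iff-1 RNAi 15C against EV 15C for 20 further import genes and 18 further shape and inner membrane genes, ordered by value, with limma's SE; filled points passed an adjusted p of 0.05. The filled points of the import genes all lie below 0, down to immp-2 at -0.73, and those of the second list run from spg-7 at -0.56 to crls-1 at 0.34.

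The pattern of atad-3 over the 9 libraries was set beside that of 8061 other protein-coding genes, as the Euclidean distance between log2(FPKM + 1) values centred on each gene's mean. The nearest was gsr-1, the glutathione reductase gene, at a distance of 0.23, with 155 ± 1.09 FPKM in EV 15C, 136 ± 3.82 in EV 20C and 88.5 ± 5.43 in iff-1 RNAi 15C. Next came dhs-12 of the short-chain dehydrogenase family (distance 0.25, log2 -0.95 under iff-1 RNAi), and glh-2, a Vasa-related helicase gene of germ granules (0.25, log2 -0.82). They were followed by M04B2.4 (0.27, log2 -0.89) and by mecr-1, a reductase gene of mitochondrial fatty acid synthesis (0.35, log2 -0.74). At 20°C against EV 15C, gsr-1, dhs-12 and glh-2 fell (limma adjusted p = 0.0135, 0.0317 and 0.0457). In that comparison M04B2.4 (log2 -0.09, limma adjusted p = 0.321) and mecr-1 (log2 -0.17, limma adjusted p = 0.131) did not pass. None of the 5 belongs to the lists of import or shape genes, and glh-2 is also among the germ line markers. A small distance describes these 9 libraries alone.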

How the data were processed

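The authors deposited 1 table of FPKM values per gene and library, with decimals and many exact 0 values. Per the labels' protocols, libraries came from a stranded poly-A mRNA kit and were read as paired 75-nt reads. Per the submitters' processing notes, CASAVA and Cufflinks were used, with no role or version given. Which aligner, build, gene models and strand option were used is not given in the sources used here. Coordinates, exons and overlaps come from the Ensembl WBcel235 annotation, whose build may differ from the authors' one. Symbols were matched for 43227 of 46245 IDs.

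FPKM are not counts, so no count model was fitted. The test was limma's (version 3.58.1, R version 4.3.3), run on log2(FPKM + 1) with a variance trend over the 8572 genes with a mean of at least 1 FPKM. A single fit held all 9 libraries and left 6 residual degrees of freedom, and p-values were adjusted by Benjamini-Hochberg over all tested genes. Log2 fold changes on this scale understate the change of low genes. The code was tested on simulated data. Depth was estimated from FPKM times length among genes with 1 transcript over 1500 nt. The median of values between 18 and 36 was taken as the worth of 1 fragment. The same window was used for all libraries, and it limits the depth that can come out. Between 81.6% and 85.7% of low values lay within 0.25 of a whole multiple of that median. Evenly spread values would often lie that near too, and counts were not recovered.

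The members, the lists and the alternatives were chosen with earlier results of these data known. All members were named, with up to 4 genes per list and comparison by smallest adjusted p, and the 5 genes nearest to the member with the largest change against EV 15C. Alternatives were pseudocounts of 0.1 and 5, no filter, a filter of 5 FPKM, median ratio scaling, scaling without the 10 highest genes, quantile normalization, the 2 groups alone, no variance trend, the replicate number as a block, and each library left out. Member sequences were not used here.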

Additional observations from a re-analysis of the deposited data

How the results depend on the processing

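Over 540 recomputed fold changes of members, from 27 values under 20 alternatives each, 468 kept their direction and their side of the threshold, 32 lost the call, 19 gained it and 21 changed sign. The atad-3 calls held throughout, and for the fold changes that did change the cause was not tested. All 105 recomputed ratios moved by less than 1 SD. Most of these alternatives left out 1 of 3 libraries, which always moves a group mean by less than 1 SD. The others added 1 to FPKM values far above 1. This count is therefore not a test of how firm the ratios are.

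Members that rose at 20°C (1) numbered 0 with no filter, without the 10 highest genes, with quantile normalization, with no variance trend, with the replicate block and without the most intestine-rich libraries, and 0 to 1 with 1 library left out. Members that fell (2) numbered 1 with no filter, median ratio scaling, the 2 groups alone, no variance trend and without the most intestine-rich libraries, 4 with quantile normalization, and 1 to 3 with 1 library left out. Under iff-1 RNAi against EV 15C, rises (1) numbered 2 with quantile normalization or the 2 groups alone, 0 without the most intestine-rich libraries and 1 to 2 with 1 library left out. Falls (3) numbered 5 without the 10 highest genes or with the 2 groups alone, 1 without the most intestine-rich libraries and 2 to 5 with 1 library left out. Against EV 20C, rises (2) numbered 1 without the most intestine-rich libraries and 2 with 1 library left out, and falls 3 to 4 with 1 library left out.

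Values that changed sign were not called in any of these settings, and ranges in parentheses are those with 1 library left out. At 20°C, tomm-20 was -0.0061 with median ratio scaling and -0.034 with quantile normalization (-0.038 to 0.052), timm-23 -0.031 with quantile normalization (-0.0086 to 0.059), fzo-1 0.018 without the 10 highest genes (-0.023 to 0.0016), and phb-1 -0.016 with median ratio scaling and -0.022 with quantile normalization (-0.057 to 0.043). Under iff-1 RNAi, fzo-1 was 0.0033 with quantile normalization (-0.010 to 0.0069). Against EV 20C, fzo-1 was -0.022 with median ratio scaling and -0.036 without the 10 highest genes (-0.0033 to 0.022), and phb-2 0.046 with quantile normalization (-0.052 to 0.023).

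Replicate numbers were tested as a block. Deviations of same-numbered libraries correlated at r = -0.19 to 0.08 and those of differently numbered ones at -0.14 to 0.21, so the numbers were not taken as pairs. The most intestine-rich libraries of the groups carry different numbers and correlated with each other at r = 0.15 to 0.21. The check therefore does not show that same-numbered libraries were grown apart. With the replicate block, the drp-1 rise at 20°C had adjusted p = 0.0708, and no other member's call changed.

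Depth was estimated from the FPKM values. A member's estimated counting error is at most 1.94%, and in EV 15C the spread of 5 of 9 members was below theirs. Each group has 3 libraries.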
